A study of Mus musculus with 12 samples.

Results

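The genes examined here encode acute-phase proteins, the calprotectin subunits and the metallothioneins. They are S100a8, S100a9, Saa3, Lcn2, Lrg1, Serpina3n, Mt1, Mt2 and Cebpd, 9 of the 18079 genes in the deposited table, found through their NCBI Gene identifiers. All 9 passed the filter on low values, which asked for 1 FPKM or more in at least 3 libraries and left 11664 genes. The genes were chosen by their own values in these 12 libraries, so their levels and differences are given as a description, and the p-values beside them are not independent evidence.

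Male C57BL/6J mice underwent descending aortic banding (AB), which puts the left ventricle under pressure overload, or a sham operation. Hispidulin, a plant flavone, was injected intraperitoneally at 20 mg/kg/day, and its solvent DMSO was given to the controls. Sham-operated mice formed the groups DMSO+Sham and Hispidulin+Sham, banded mice the groups DMSO+AB and Hispidulin+AB, with 3 mice and 3 libraries in each. All mice were injected from 1 day before the operation, at 8 weeks of age by the labels, and hearts were taken 4 weeks after it, at 12 weeks. All mice, controls included, therefore carried an operation and daily injections. The tissue was left ventricular muscle, and 1 library was made for each mouse from polyadenylated RNA.

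S100A8 and S100A9 form calprotectin, a calcium- and zinc-binding protein that neutrophils and monocytes hold in large amounts and release as a ligand of Toll-like receptor 4. Acute-phase genes are switched on by interleukin 6 and interleukin 1 through the transcription factors STAT3, NF-kB and C/EBP, mostly in the liver and, for Saa3, Lcn2, Lrg1 and Serpina3n, in other tissues too. Metallothioneins bind zinc and copper, and their genes answer to free zinc through the factor MTF-1 and also to glucocorticoids. In bulk tissue, fewer cells of a type and less RNA per cell cannot be told apart.

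RefSeq (GRCm38.p6) gave a promoter window for 8 of the 9 genes. The genome build of the deposited table is not given in the sources used here, so the coordinates are those of RefSeq. The 250 bases ahead of the start of 4 genes are shown, namely the metallothioneins and the acute-phase genes with the widest range between mice, because these classes are known for how they are switched on. Sequences run 5′ to 3′ on the strand of the gene. In Mt1 (chr8:94178839-94179088, plus strand) and Mt2 (chr8:94172368-94172617, plus strand), capitals mark the metal response element that MTF-1 recognises, searched as TGCACNC or TGCGCNC on both strands.
Mt1: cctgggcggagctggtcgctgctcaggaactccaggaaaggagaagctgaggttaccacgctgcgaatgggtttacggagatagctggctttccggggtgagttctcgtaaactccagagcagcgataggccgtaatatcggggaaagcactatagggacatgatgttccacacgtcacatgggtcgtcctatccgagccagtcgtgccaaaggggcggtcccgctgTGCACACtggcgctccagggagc
Mt2: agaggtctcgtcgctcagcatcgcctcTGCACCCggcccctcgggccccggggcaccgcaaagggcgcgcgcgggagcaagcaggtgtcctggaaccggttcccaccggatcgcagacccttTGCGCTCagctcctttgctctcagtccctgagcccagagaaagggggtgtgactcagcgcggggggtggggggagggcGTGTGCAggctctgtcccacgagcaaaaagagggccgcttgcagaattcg
In Saa3 (chr7:46715677-46715926, minus strand) and Lcn2 (chr2:32387740-32387989, minus strand), capitals mark a C/EBP motif, TTGCNNAA, an NF-kB motif, GGNNTTTCC, or a STAT motif, TTCNNNGAA, on either strand.
Saa3: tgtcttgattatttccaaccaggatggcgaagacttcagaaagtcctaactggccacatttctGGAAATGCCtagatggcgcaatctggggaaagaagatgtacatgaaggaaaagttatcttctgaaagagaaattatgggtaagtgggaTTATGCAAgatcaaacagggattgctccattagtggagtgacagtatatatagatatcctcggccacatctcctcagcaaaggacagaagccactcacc
Lcn2: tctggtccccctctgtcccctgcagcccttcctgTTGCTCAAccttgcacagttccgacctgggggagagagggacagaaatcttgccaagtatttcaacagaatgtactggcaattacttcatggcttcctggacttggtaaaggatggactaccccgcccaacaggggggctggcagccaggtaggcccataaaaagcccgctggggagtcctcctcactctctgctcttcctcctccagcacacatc
Within these 250 bases Mt2 held 3 metal response elements, the nearest ending 43 bases ahead of the start, and Mt1 held 1, ending 16 bases ahead. The counts depend on the start that RefSeq gives, and elements outside the windows were not counted. Of all 32851 windows of this length, 21.4% held at least 1. Saa3 held 1 C/EBP match, which ended 91 bases ahead of the start, and 1 NF-kB match, and Lcn2 held 1 C/EBP match that ended 208 bases ahead. C/EBP matches were present in 9.56% of all windows, NF-kB matches in 4.93% and STAT matches in 7.02%. These matches describe the letters and are not evidence of binding.

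The FPKM of a library, fragments scaled by exon length and by the mapped fragments of the library, summed to between 535235 and 567027, and the depth is unknown. Across genes, libraries of the same group correlated with a Spearman coefficient between 0.968 and 0.986. The 9 ventricular cardiomyocyte markers were present in every library and summed to between 38839.7 FPKM, in the third DMSO+Sham mouse, and 56406.9 FPKM. The 7 hepatocyte markers in the table summed to at most 6.66 FPKM in any library, and albumin was listed at 0 in 10 of 12. The animal numbers in the labels fall into series that begin with 1, 5 or 6, and the first DMSO+Sham mouse is alone in series 1. The labels give no sequencing batch.

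One library stood apart before any comparison of groups. The third DMSO+Sham mouse, a sham-operated control, was the highest of the 12 for 8 of the 9 genes, against 22% of all genes tested, and the exception was Cebpd. For 6 of the 9 genes it lay at least 2-fold above every other library on FPKM + 1, against 0.772% of all genes, and each of the other 11 libraries had such a lead in at most 12 genes. Results that involve DMSO+Sham are therefore given with and without this mouse. No label sets the mouse apart from the other DMSO+Sham mice, apart from its animal number, and the cause was not tested.

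**Figure D1:**
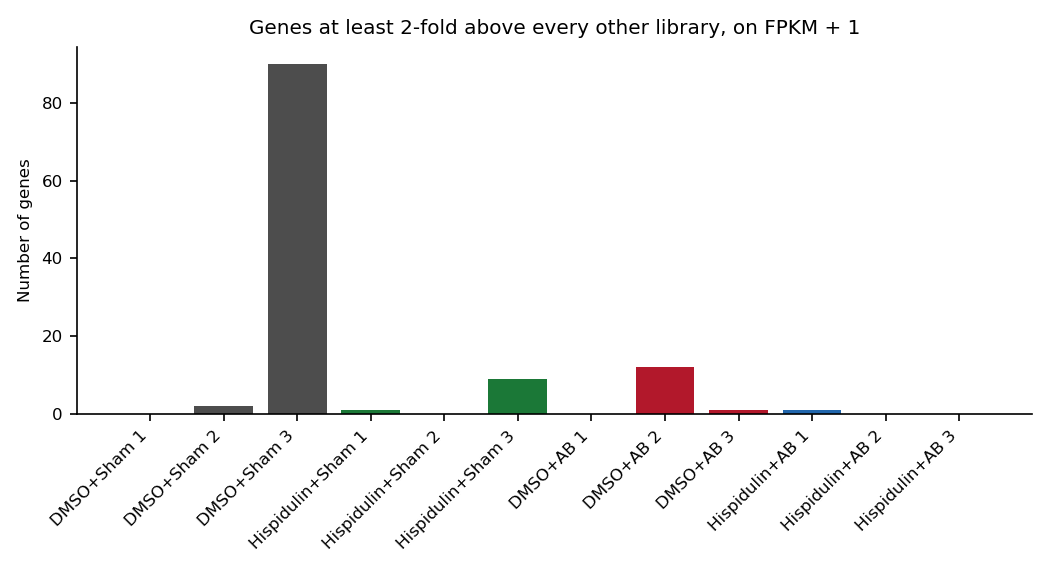
Number of genes, of 11664 tested, whose FPKM + 1 in a library was at least 2-fold above every other library; bars are libraries, coloured by group. DMSO+Sham 3 has 90 such genes and the other libraries have between 0 and 12.

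Saa3 encodes serum amyloid A3, the serum amyloid A that mice make outside the liver. Its FPKM was 1.24, 0.31 and 623.82 in the DMSO+Sham mice, and 1.22, 0 and 1.14 in the Hispidulin+Sham mice. It was 2.05, 1.94 and 0 in the DMSO+AB mice, and 2.18, 0.91 and 1.72 in the Hispidulin+AB mice. Saa3 was thus low in 11 mice and in a single mouse 286 times the next highest value. By level it was gene 140 of its library in that mouse, whereas its best place in the other 11 was 9775. No other gene had a greater lead in that library.

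Lcn2 encodes lipocalin 2, which binds bacterial siderophores and is made by neutrophils and stressed tissue. Lcn2 FPKM was 12.06, 3.45 and 272.62 in DMSO+Sham, 10.43, 9.73 and 12.21 in Hispidulin+Sham, 13.11, 8.98 and 14.09 in DMSO+AB, and 30.59, 15.35 and 15.78 in Hispidulin+AB. Here too the third DMSO+Sham mouse was far above the rest, by 8.91 times the next, and was followed by the first Hispidulin+AB mouse. Across the other 11 mice Lcn2 spanned 8.87-fold, with the second DMSO+Sham mouse lowest. The 3 Hispidulin+AB mice were all above the 3 DMSO+AB and the 3 Hispidulin+Sham mice.

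Serpina3n, an inhibitor of serine proteases such as granzyme B, had an FPKM of 66.69, 8.64 and 300.14 in DMSO+Sham and of 32.08, 9.87 and 33.73 in Hispidulin+Sham. It was 38.31, 100.92 and 35.23 in DMSO+AB and 85.20, 52.45 and 49.68 in Hispidulin+AB. Both the highest and the lowest of the 12 values came from DMSO+Sham mice, and the Hispidulin+AB mice were all above the Hispidulin+Sham mice. Lrg1, whose secreted product modulates TGF-beta signalling in endothelium, had an FPKM of 72.35, 40.55 and 203.71 in DMSO+Sham and of 60.77, 56.68 and 46.10 in Hispidulin+Sham. It was 36.50, 30.56 and 41.31 in DMSO+AB and 54.55, 49.78 and 38.60 in Hispidulin+AB. Lrg1 was the steadiest of the 4 acute-phase genes outside the third DMSO+Sham mouse, with a 2.37-fold range over the other 11, and its 2 lowest values were in DMSO+AB.

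The metallothioneins were the most abundant of the 9 genes. Mt1 FPKM was 1064.70, 393.72 and 2791.78 in DMSO+Sham, 962.68, 723.27 and 827.15 in Hispidulin+Sham, 868.07, 1021.73 and 1010.61 in DMSO+AB, and 1224.48, 983.92 and 929.38 in Hispidulin+AB. Mt2 FPKM was 298.25, 55.13 and 1368.25 in DMSO+Sham, 314.48, 147.57 and 232.21 in Hispidulin+Sham, 410.02, 452.07 and 408.72 in DMSO+AB, and 573.73, 334.52 and 478.06 in Hispidulin+AB. For both genes the DMSO+Sham mice included the highest and the lowest of the 12 values, and the DMSO+AB mice lay close together. Mt2 varied more than Mt1, with a 10.4-fold range over the 11 mice other than the third DMSO+Sham against 3.11-fold for Mt1. Accordingly, the ratio of Mt1 to Mt2 fell between 1.94 and 7.14, with a median of 2.71, and was highest in the second DMSO+Sham mouse, where both were lowest.

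S100a8 FPKM was 4.11, 3.86 and 21.66 in DMSO+Sham, 5.94, 0.23 and 2.26 in Hispidulin+Sham, 9.23, 2.92 and 2.13 in DMSO+AB, and 15.18, 12.45 and 9.33 in Hispidulin+AB. S100a9 FPKM was 6.15, 3.98 and 30.96 in DMSO+Sham, 5.91, 0.16 and 3.55 in Hispidulin+Sham, 11.24, 3.57 and 1.94 in DMSO+AB, and 15.65, 15.65 and 8.69 in Hispidulin+AB. Both calprotectin genes were thus highest in the third DMSO+Sham mouse, by 1.43 and 1.98 times the next value, and nearly absent from the second Hispidulin+Sham mouse. Apart from the third DMSO+Sham mouse, their highest values were in Hispidulin+AB. The lead of this mouse was much smaller than for Saa3 and Lcn2, since its place among all genes by lead was 359 for S100a8 and 105 for S100a9, against 1 for Saa3 and 3 for Lcn2.

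Cebpd encodes C/EBP delta, a transcription factor of the acute-phase response. Its FPKM was 16.57, 17.57 and 33.72 in DMSO+Sham, 23.17, 20.68 and 21.39 in Hispidulin+Sham, 33.37, 18.22 and 34.84 in DMSO+AB, and 38.28, 24.02 and 19.50 in Hispidulin+AB. Cebpd was the only one of the 9 genes for which the third DMSO+Sham mouse was not the highest, and it ranged 2.31-fold over the other 11. When that mouse was set aside, the first Hispidulin+AB mouse was the highest of the 11 for 7 of the 9 genes, in S100a9 tied with the second Hispidulin+AB mouse. It held that place in 2.93% of all genes tested.

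**Figure D2:**
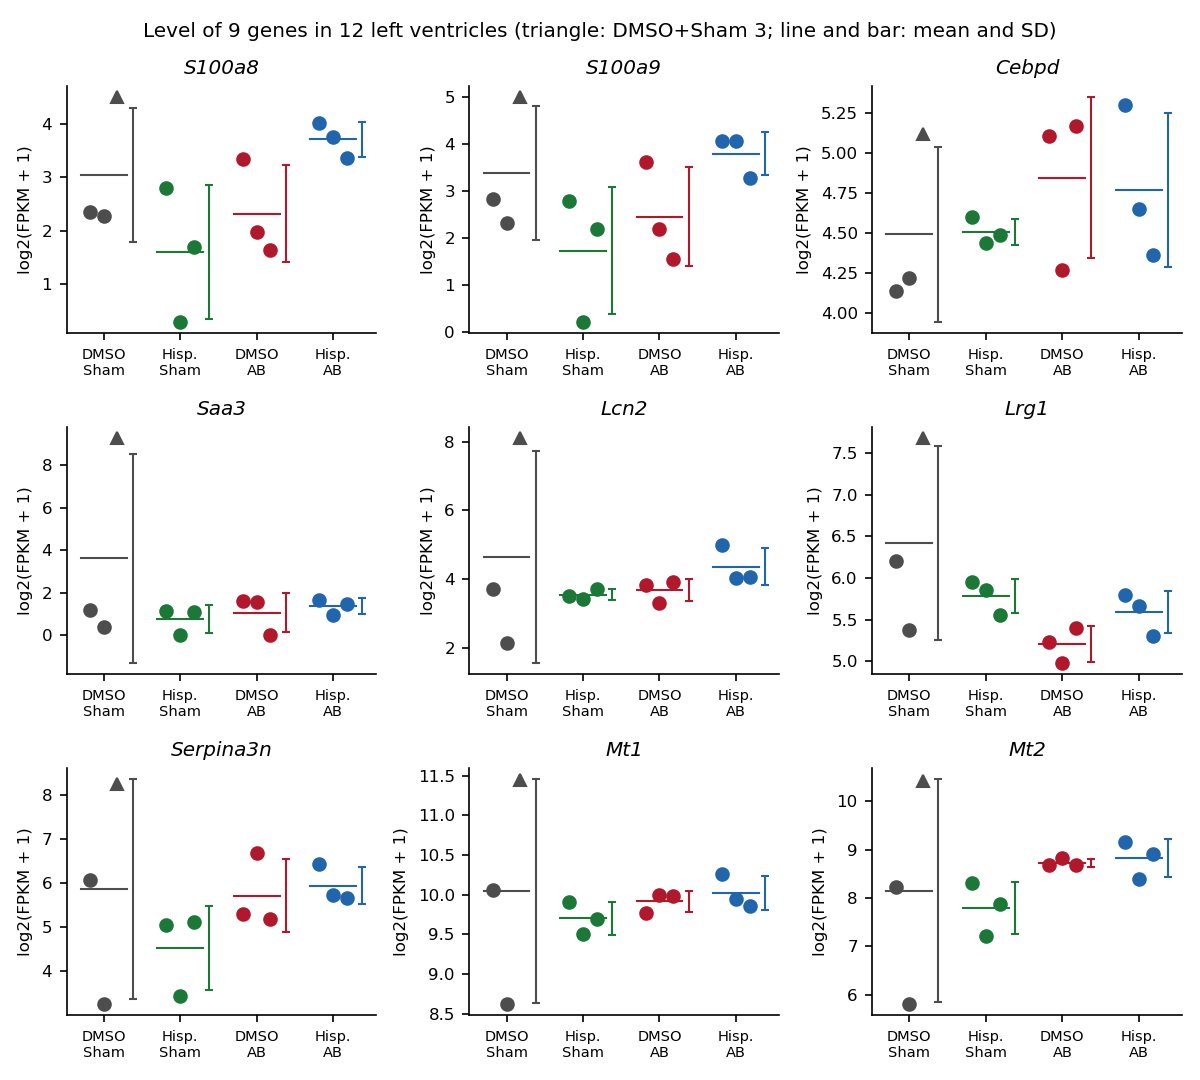
Level of each gene as log2(FPKM + 1) in 12 libraries, 3 per group, 1 panel per gene. Points are mice, the triangle is DMSO+Sham 3, the horizontal line is the group mean and the bar beside it the SD. The triangle is the top point in 8 of the 9 panels and widens the DMSO+Sham bar.

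Which mouse of a group differed most from the mean of the other two was not the same for all genes. It was the third DMSO+Sham mouse, on the high side, for S100a8, S100a9, Saa3, Lcn2, Lrg1 and Cebpd. For Serpina3n, Mt1 and Mt2 it was the second DMSO+Sham mouse, on the low side, by 3.89, 2.13 and 3.51 on the log2 scale, although the mean it was set against includes the third mouse. The second DMSO+Sham mouse was the lowest of the 12 for 4 of the 9 genes, which also include Lcn2. The DMSO+Sham group thus contained both extremes, and its differences from other groups rest on which of these mice enter it.

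The first comparison asks how AB changed these genes in mice given DMSO. A limma model of the 12 libraries was used throughout, on the log2(FPKM + 1) scale, on which the change of a low gene is understated. Its p-values carry a Benjamini-Hochberg adjustment over the 11664 genes. None of the 9 genes passed an adjusted p under 0.05, against 5.21% of all genes, and 1 of the 9 had an unadjusted p under 0.05, against 20.4% of all genes. With all mice, 2 of the 9 were higher in DMSO+AB than in DMSO+Sham by the mean of log2(FPKM + 1), Cebpd and Mt2, and the median log2 fold change was -0.72, against -0.03 over all genes. By mean FPKM Mt2 was lower, at 424 in DMSO+AB against 574 in DMSO+Sham, so that its direction turned with the scale. Without the third DMSO+Sham mouse, 7 of the 9 were higher, the median was 0.57, against -0.01 over all genes, and 3 of the 9 had an unadjusted p under 0.05, against 19.8% of all genes. The sign of 5 of the 9 genes changed. S100a9 stayed lower on the log2 scale, whereas its mean FPKM was higher, at 5.58 in DMSO+AB against 5.065 in the remaining DMSO+Sham mice. Leaving out the second DMSO+Sham mouse instead moved the values the opposite way, to 1 of the 9 higher and a median of -1.44, and 4 of the 9 had an unadjusted p under 0.05, against 24.8% of all genes.

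Saa3 went from a log2 fold change of -2.56 ± 1.70 (SE) to 0.28 ± 0.49 and Lcn2 from -0.97 ± 1.06 to 0.75 ± 0.39 when the third DMSO+Sham mouse was left out. Serpina3n went from -0.15 ± 0.95 to 1.04 ± 0.74. With the second DMSO+Sham mouse left out instead, the log2 fold changes were -4.17 ± 1.65 for Saa3, -2.22 ± 0.89 for Lcn2 and -1.44 ± 0.67 for Serpina3n. The largest change after AB without the third mouse was in Mt2, which went from 0.58 ± 0.81, with an adjusted p of 0.727 in limma, to 1.71 ± 0.53, with an adjusted p of 0.0957. Its adjusted p lay between 0.0957 and 0.839 over 24 alternatives, and it turned to -0.59 ± 0.51 when the second DMSO+Sham mouse was left out instead. The direction of Mt2 after AB therefore depended on whether the second DMSO+Sham mouse was included.

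Lrg1 kept its direction. It was lower in DMSO+AB, at 36.1 ± 5.38 FPKM (SD, n = 3), than in DMSO+Sham, at 106 ± 86.5 FPKM (SD, n = 3) with all mice and 72.35 and 40.55 without the third. Its log2 fold change was -1.21 ± 0.42 with an adjusted p of 0.122 in limma, and -0.58 ± 0.23 with an adjusted p of 0.183 without that mouse. Lrg1 passed the threshold in only 2 of 24 alternatives, over which its adjusted p in limma ranged from 0.0119 to 0.365. It was 0.0119 when the second DMSO+Sham mouse was left out, where 9.03% of all genes passed. With libraries weighted by their quality it was 0.0332, in a fit where 1423 of the 11664 genes tested passed. The groups overlapped, since the third DMSO+AB mouse at 41.31 FPKM was above the second DMSO+Sham mouse at 40.55 FPKM.

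With all mice, no gene of the 9 had groups that did not overlap between DMSO+AB and DMSO+Sham, against 17.9% of all genes. Without the third DMSO+Sham mouse, Mt2 and Cebpd were higher in all DMSO+AB mice, 2 of 9, against 12.7% of all genes. The calprotectin genes overlapped between the groups, and their log2 fold changes without the mouse were 0.01 ± 0.61 for S100a8 and -0.12 ± 0.69 for S100a9. Within animal series 5, with 1 mouse in each group, 6 of the 9 genes were higher in DMSO+AB. Within series 6, where the third DMSO+Sham mouse is the only control, it was 0 of the 9.

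**Figure D3:**
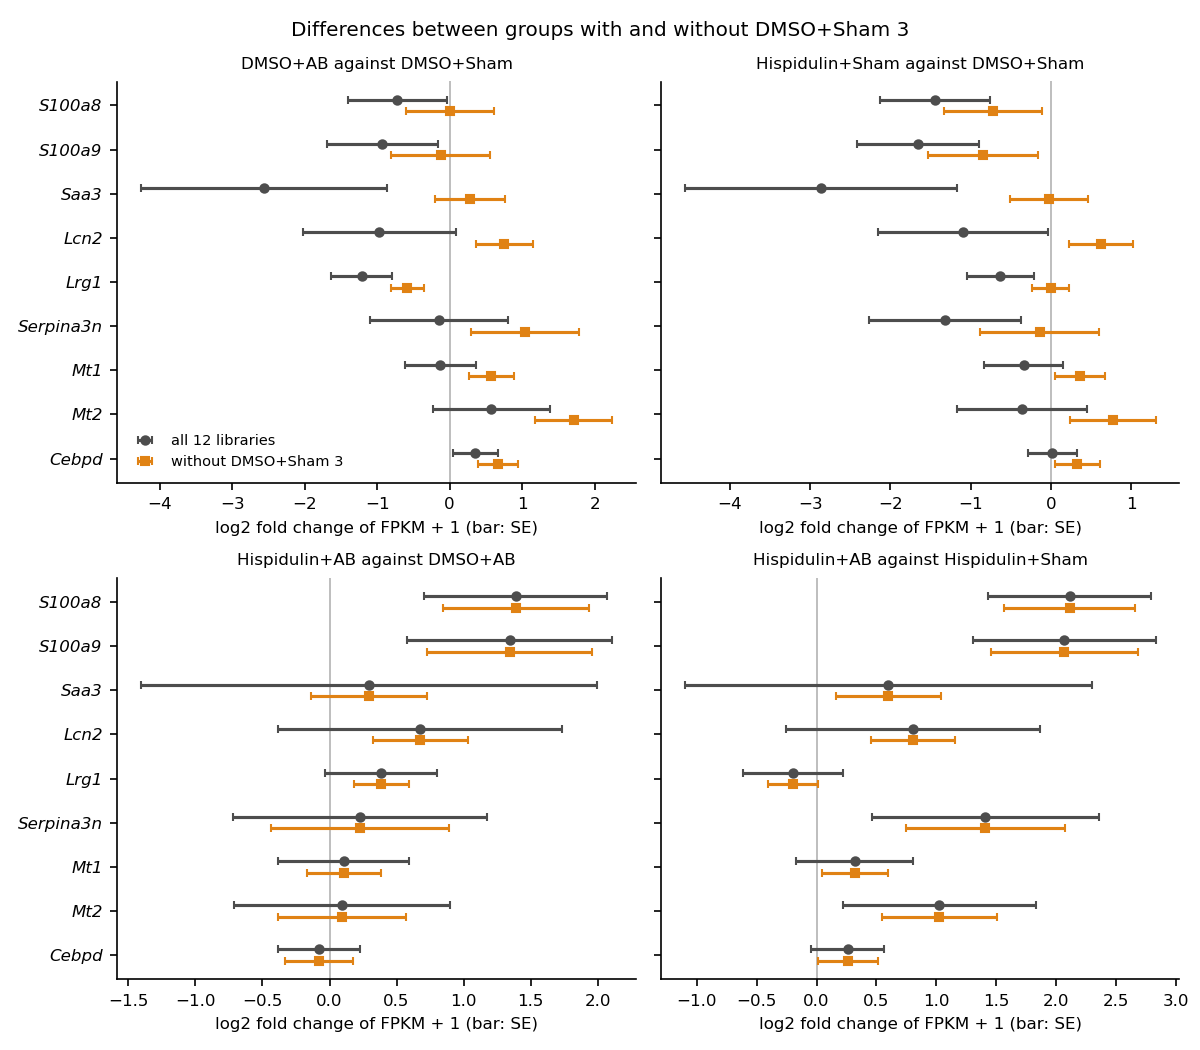
Log2 fold change of FPKM + 1 for each of the 9 genes in 4 comparisons, with SE bars from limma; circles are from all 12 libraries and squares from the 11 without DMSO+Sham 3. In the upper panels, which share the DMSO+Sham group, squares lie to the right of circles for all 9 genes, whereas in the lower panels the values do not move and only the SE shrinks.

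The second comparison asks what hispidulin did in sham-operated mice. It shares the DMSO+Sham mice with the first. None of the 9 genes passed, against 0% of all genes, and none had an unadjusted p under 0.05, against 2.46% of all genes. With all mice, 1 of the 9 genes, Cebpd, was higher in Hispidulin+Sham on the log2 scale, by 0.02, though not by mean FPKM (21.7 against 22.6), and the median log2 fold change was -1.10, against -0.01 over all genes. Without the third DMSO+Sham mouse, 4 of the 9 were higher and the median was -0.00, against 0.01 over all genes. When the second DMSO+Sham mouse was left out instead, 0 of the 9 were higher, the median was -1.83, and 8 of the 9 had an unadjusted p under 0.05, against 9.4% of all genes, although none passed after adjustment in limma. Without the third mouse S100a9 went from -1.65 ± 0.76 to -0.85 ± 0.69, Saa3 from -2.86 ± 1.70 to -0.03 ± 0.49 and Lrg1 from -0.63 ± 0.42 to -0.00 ± 0.23. No gene of the 9 separated the groups with all mice, against 5.6% of all genes, and 1 of 9, Cebpd, did so without the third DMSO+Sham mouse, higher in Hispidulin+Sham, against 6.37% of all genes. Within series 5, 7 of the 9 genes were higher in Hispidulin+Sham, and within series 6, against the third DMSO+Sham mouse alone, 0 of the 9.

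The third comparison, Hispidulin+AB against DMSO+AB, asks what hispidulin did in banded hearts. No DMSO+Sham mouse enters its means, but the spread behind its errors is pooled over all 12 mice, the third DMSO+Sham mouse included. None of the 9 genes passed, against 0% of all genes, and none had an unadjusted p under 0.05, against 3.1% of all genes. Without the third DMSO+Sham mouse 1 of the 9, S100a8, had an unadjusted p under 0.05, against 4.1% of all genes. With only the 6 mice compared in the fit it was 4 of the 9, S100a8, S100a9, Lcn2 and Lrg1, against 3.65% of all genes, and none passed after adjustment in limma in either fit. In all, 8 of the 9 had a higher mean with hispidulin, with a median log2 fold change of 0.29, against 0.00 over all genes. Without the first Hispidulin+AB mouse it was 5 of the 9, with a median of 0.13, against 0.01 over all genes, and Serpina3n, Mt1 and Mt2 changed sign. The calprotectin genes differed most. S100a8 was at 12.3 ± 2.93 FPKM (SD, n = 3) in Hispidulin+AB and 4.76 ± 3.89 FPKM (SD, n = 3) in DMSO+AB, a log2 fold change of 1.39 ± 0.68 with an adjusted p of 0.996 in limma. S100a9 was at 13.3 ± 4.02 and 5.58 ± 4.97 FPKM, a log2 fold change of 1.34 ± 0.76 with an adjusted p of 0.996 in limma.

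S100a8 and Lcn2 were higher in all Hispidulin+AB mice than in all DMSO+AB mice, 2 of 9, against 4.23% of all genes. For S100a8 the groups were parted by little, 9.33 against 9.23 FPKM, and S100a9 overlapped. When each library was left out in turn, the log2 fold change lay between 1.05 and 1.90 for S100a8 and between 0.89 and 1.92 for S100a9, the highest values without the first DMSO+AB mouse. Within animal series 6, with 2 mice in each group, the log2 difference was 1.22 for S100a8 and 1.15 for S100a9. Within series 5, with 1 mouse in each group, it was 1.72 for both. The metallothioneins hardly differed, at 0.11 ± 0.49 for Mt1 and 0.09 ± 0.81 for Mt2.

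The fourth comparison asks how AB changed the genes in mice given hispidulin. None of the 9 genes passed, against 0% of all genes, and 2 of the 9, S100a8 and S100a9, had an unadjusted p under 0.05, against 7.26% of all genes. Again 8 of the 9 had a higher mean after AB, with a median log2 fold change of 0.81, against -0.02 over all genes, and Lrg1 was the exception. Without the first Hispidulin+AB mouse it was 7 of the 9, with a median of 0.50, against -0.01 over all genes. S100a8 was at 2.81 ± 2.89 FPKM in Hispidulin+Sham and 12.3 ± 2.93 FPKM in Hispidulin+AB (SD, n = 3 in each), a log2 fold change of 2.11 ± 0.68 with an adjusted p of 0.517 in limma. S100a9 was at 3.21 ± 2.89 and 13.3 ± 4.02 FPKM, a log2 fold change of 2.07 ± 0.76 with an adjusted p of 0.608 in limma.

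Over all genes, the deviations of same-numbered mice of these 2 groups from their group means correlated weakly, at 0.147 to 0.228. No label pairs these mice, and each same-numbered pair came from different animal series. In the blocked fit, where the replicate number is a term, the adjusted p in limma was 0.435 for S100a8 and 0.507 for S100a9. None of the 9 genes passed in it, whereas the count over all genes went from 0 to 17. With quality weights S100a8 passed, at 0.0416, in a fit where 209 of the 11664 genes tested passed. Its adjusted p in limma ranged from 0.0416 to 0.9998 over 24 alternatives. Without the second Hispidulin+Sham mouse, in which both genes were nearly absent, the log2 fold changes were 1.46 and 1.31.

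S100a8, S100a9, Lcn2, Serpina3n and Mt2 were higher in all Hispidulin+AB than in all Hispidulin+Sham mice, 5 of 9, against 9.14% of all genes. Serpina3n differed by 1.41 ± 0.95 and Mt2 by 1.03 ± 0.81 on the log2 scale, and neither passed. These errors too include the spread of the DMSO+Sham mice, and without the third of them they were 0.66 for Serpina3n and 0.48 for Mt2. In that fit 3 of the 9 genes had an unadjusted p under 0.05, against 9.57% of all genes, and with only the 6 mice compared it was 6 of the 9, against 16% of all genes, with none passing after adjustment in limma. Within animal series 6 all 9 genes were higher in Hispidulin+AB, by a median of 0.78, and within series 5 it was 7 of 9, with a median of 0.87. These series hold 1 or 2 mice in each group and give no test.

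The interaction of hispidulin and AB tests whether the change after AB differed between mice given hispidulin and DMSO. None of the 9 genes passed, against 0% of all genes, and 2 of the 9, S100a8 and S100a9, had an unadjusted p under 0.05, against 2.48% of all genes. The interaction was 2.83 ± 0.96 for S100a8 and 3.00 ± 1.08 for S100a9 on the log2 scale, both with an adjusted p of 0.9995 in limma. It was 2.11 ± 0.82 for S100a8 and 2.19 ± 0.92 for S100a9 without the third DMSO+Sham mouse, and the median over the 9 genes went from 1.55 to 0.32. Without the second it was 3.22 ± 1.01 and 3.53 ± 1.09, the median was 2.85, and 7 of the 9 had an unadjusted p under 0.05, against 8.31% of all genes, with none passing after adjustment in limma.

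The partners S100a8 and S100a9 followed each other across all 12 mice, with a Pearson r of 0.985 and a Spearman rho of 0.984 on log2(FPKM + 1), each with a permutation p of 1e-05, the smallest that 100000 resamples can give. After adjustment over the 5 pairs computed, both were 5e-05. The relation held without the 2 mice farthest from the median of S100a8 (r = 0.968), without the third DMSO+Sham mouse (r = 0.981) and within animal series 6 (r = 0.989, n = 6). The ratio of S100a9 to S100a8 stayed between 0.70 and 1.57.

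Mt1 and Mt2 lie next to each other and were also related, with r = 0.936 (permutation p = 0.00018, adjusted 0.00045) and rho = 0.720 (permutation p = 0.0106, adjusted 0.0265). Without the 2 mice farthest from the median of Mt1 r was 0.782, without the third DMSO+Sham mouse 0.936, and within animal series 6, which includes that mouse, it was 0.949 (n = 6). Series 5, and series 6 without that mouse, hold 5 mice each, and the r of 0.964 and 0.825 in them is given as a description only.

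Saa3 and Lcn2 were related through 1 mouse. Their r was 0.913 (permutation p = 0.00876, adjusted 0.0146) and their rho 0.494 (permutation p = 0.105, adjusted 0.131). Without the third DMSO+Sham mouse r was 0.443, and without the 2 mice farthest from the median of Saa3, of which it is one, r was 0.445. The relation of Lrg1 and Serpina3n, with r = 0.526 (permutation p = 0.0999, adjusted 0.0999) and rho = 0.119 (permutation p = 0.716, adjusted 0.716), fell to r = -0.08 without that mouse and to 0.206 without the 2 farthest. Cebpd and Mt2 had r = 0.586 (permutation p = 0.0379, adjusted 0.0474) and rho = 0.545 (permutation p = 0.0697, adjusted 0.116). Without the 2 farthest mice r was 0.588, without the third DMSO+Sham mouse 0.498, and within series 6, which includes that mouse, 0.558.

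**Figure D4:**
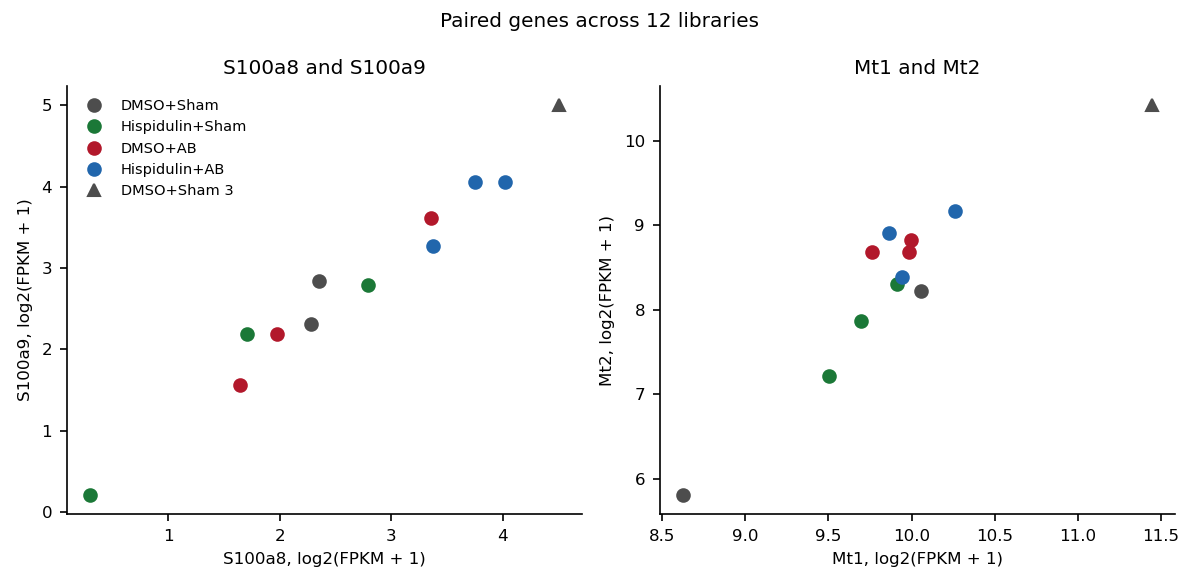
S100a9 against S100a8 (left) and Mt2 against Mt1 (right), both axes as log2(FPKM + 1), 1 point per library, coloured by group; the triangle is DMSO+Sham 3. The calprotectin genes lie along a line (r = 0.985), as do the metallothioneins (r = 0.936), whose lowest point is DMSO+Sham 2.

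Of all genes tested, those most like S100a9 across the 12 mice by Pearson r were Retnlg (0.956), Csf3r (0.918), Mmp8 (0.894), Lilr4b (0.892) and H3f3b (0.887). Retnlg, the receptor gene Csf3r and the collagenase gene Mmp8 are neutrophil markers. Those most like Lcn2 were Ptprf (0.957), St3gal1 (0.952), Syn2 (0.946), Myo1g (0.945) and Pirb (0.942), and without the third DMSO+Sham mouse their r was between 0.691 and 0.787. Those most like Mt2 were Syt12 (0.925), Nfam1 (0.918), Ly6a (0.914), Ptgds (0.911) and Spi1 (0.909).

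Some neutrophil markers ran in the order of the calprotectin genes after AB and others did not. The summed FPKM of the 14 neutrophil markers in the table was 30.56 in the third DMSO+Sham mouse and between 1.97 and 14.52 in the others. It was between 9.29 and 14.52 in Hispidulin+AB, between 4.74 and 13.34 in DMSO+AB and between 1.97 and 5.58 in Hispidulin+Sham. The markers with the highest mean were Clec4d, Retnlg and Csf3r. Retnlg FPKM was 5.24, 6.15 and 2.29 in Hispidulin+AB and 4.36, 1.03 and 0.36 in DMSO+AB, and it was 0 in the second Hispidulin+Sham mouse. Csf3r FPKM was 2.31, 2.5 and 2.05 in Hispidulin+AB and 2.42, 1.13 and 0.92 in DMSO+AB. For Mmp8 the values were 1.28, 1.09 and 0.67 in Hispidulin+AB and 0.74, 0.15 and 0.06 in DMSO+AB. Clec4d ran the other way after AB, at 2.91, 2.02 and 1.67 FPKM in Hispidulin+AB and 2.70, 4.84 and 2.07 in DMSO+AB, and the chemokine receptor gene Cxcr2 was between 0.95 and 1.58 FPKM in all mice. Ly6g, Camp, Ltf and Mpo, also among the 14, were at most 0.37 FPKM in any mouse. Of the 5 neutrophil markers that were tested, 0 passed in limma in any of the 4 comparisons of groups. Up to 2 had an unadjusted p under 0.05, against 2.46% to 20.4% of all genes, depending on the comparison. The part of neutrophils in the S100a8 and S100a9 values was not tested.

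**Figure D5:**
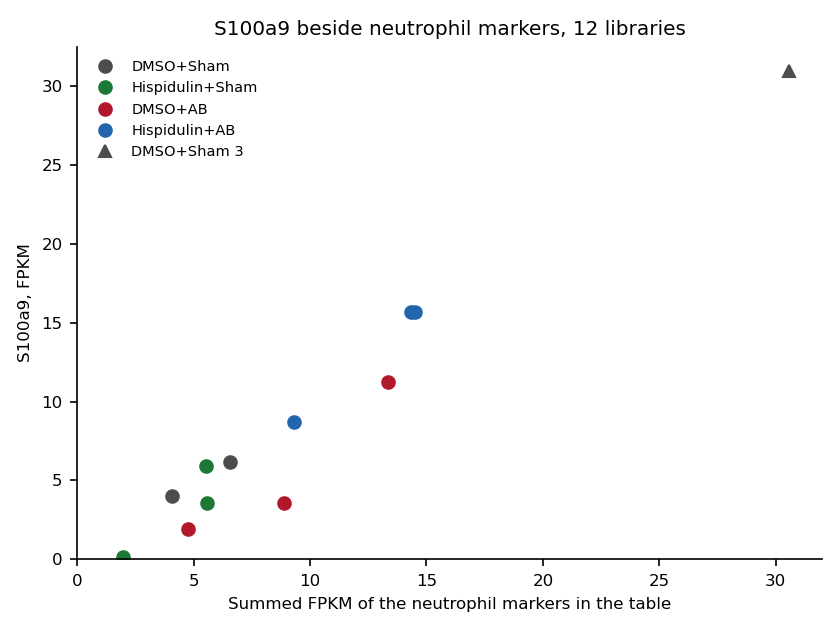
FPKM of S100a9 (vertical) against the summed FPKM of the 14 neutrophil markers in the table (horizontal), 1 point per library, coloured by group; the triangle is DMSO+Sham 3. DMSO+Sham 3 is at the top right, at 30.56 and 30.96 FPKM, followed by the first and second Hispidulin+AB mice at 15.65 FPKM of S100a9.

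Erythroid markers, which stand for blood left in the tissue, summed to 4981.38, 3281.01 and 2236.99 FPKM in Hispidulin+AB, the order that S100a8 also had in these mice. The sums were 5029.15, 3451.63 and 10253.8 FPKM in Hispidulin+Sham, where S100a8 was lower, and 2916.28 FPKM in the third DMSO+Sham mouse. The haemoglobin genes Hba-a1, Hbb-bs and Hba-a2 made up most of these sums, and their part in the S100a8 values was not tested. Macrophage and monocyte markers summed to 550.25 FPKM in the third DMSO+Sham mouse and to between 270.52 and 535.23 FPKM in the others. Endothelial and fibroblast markers summed to 330.23 and 404.9 FPKM in it, within the range of the other 11 (307.59 to 382.41 and 346.47 to 987.33). The fibroblast sum was mostly Dcn, at 354.53 FPKM, and 6 of 8 fibroblast and 3 of 7 endothelial markers were lower in that mouse than in any other. B cell and T cell markers summed to at most 1.55 and 1.33 FPKM in any mouse, while adipocyte and atrial markers summed to 930.96 and 110.9 FPKM in that mouse and to up to 1888.45 and 6227.02 FPKM in others. The adipocyte sums were almost entirely Fabp4, at 930.64 FPKM in that mouse and up to 1886.95 FPKM in others. Adipoq and Plin1 were at most 0.4 and 0.22 FPKM in any mouse, and Cfd at most 3.07 FPKM. The atrial maximum, in the second DMSO+AB mouse, was mostly Nppa (6042.98 FPKM), a gene known to rise in the banded ventricle. The atrial chamber genes Myl7, Myl4 and Sln were highest in the third Hispidulin+Sham mouse, at 333.05, 325.33 and 115.52 FPKM, against at most 67.54, 75.80 and 28.62 FPKM in any other mouse. Leaving that mouse out, Hispidulin+AB against Hispidulin+Sham gave log2 fold changes of 2.16 for S100a8 and 2.30 for S100a9, and 0 of the 9 genes passed in limma, with 2 at an unadjusted p under 0.05, against 6.86% of all genes.

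Of 21 other acute-phase genes in the table, 11 were under 1 FPKM in all mice and 7 were tested. Of these 7, 5 were highest in the third DMSO+Sham mouse, against 22% of all genes tested, and the sum of the 21 there was 384.51 FPKM against 144.28 to 219.22 FPKM in the others. Cfb, complement factor B, was at 26.22 FPKM there and at most 3.31 elsewhere, Hp, haptoglobin, at 10.22 and at most 2.67, and C3 at 121.56 and at most 75.15. The liver-type serum amyloid genes Saa1 and Saa2 reached 1.32 and 0.92 FPKM in it, against 623.82 for Saa3. Of the 7 tested, 0 passed in limma in any of the 4 comparisons of groups. Up to 2 had an unadjusted p under 0.05, against 2.46% to 20.4% of all genes, depending on the comparison. The 9 other genes of the Serpina3 cluster, of which 4 were under 1 FPKM in all mice and 1 was tested, had a sum of 20.44 FPKM in that mouse against 1.08 to 4.2 FPKM, and reads of these close paralogs may be shared with Serpina3n.

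Of the genes tested, 8 of 12 on the NF-kB and interleukin 1 list, 5 of 11 on the interleukin 6 and STAT3 list and 2 of 5 of the C/EBP family were highest in the third DMSO+Sham mouse, against 22% of all genes tested. Stat3 was at 97.26 FPKM in it and between 33.10 and 50.04 in the others, whereas Cebpb was at 72.12, within the range of the others (39.98 to 86.47). The cytokine genes Il6, Il1b and Tnf were low, at most 1.61, 2.24 and 1.28 FPKM, and the Il1b and Tnf maxima were in that mouse. Socs3, a feedback inhibitor that STAT3 induces, was highest in the first Hispidulin+AB mouse, at 15.96 FPKM, followed by the first DMSO+AB mouse at 12.36 and the third DMSO+Sham mouse at 11.10. Of the genes tested on the interleukin 6, C/EBP and NF-kB lists, 0 of 11, 0 of 5 and 0 of 12 passed in limma in any of the 4 comparisons. Up to 2, 0 and 3 had an unadjusted p under 0.05, against 2.46% to 20.4% of all genes, depending on the comparison. When that mouse was left out, 1 of the 12, the TNF receptor gene Tnfrsf1a, passed in DMSO+AB against DMSO+Sham, by 0.58 ± 0.10 with an adjusted p of 0.0153 in limma, in a fit where 4.24% of all genes passed. The mouse left out had the highest Tnfrsf1a level of all mice, at 45.2 FPKM against at most 36.75.

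For the metallothioneins, the zinc-sensing factor gene Mtf1 was between 2.56 and 3.38 FPKM in all mice, and Nr3c1, the glucocorticoid receptor gene, between 7.84 and 13.01 FPKM. Fkbp5, which glucocorticoids induce, was highest in the third DMSO+Sham mouse (72.75 FPKM) and lowest in the second (17.32 FPKM), the same mice in which Mt1 and Mt2 were highest and lowest. Tsc22d3, also induced by glucocorticoids, did not follow this order, with 94.90 and 107.89 FPKM. Of 14 tested genes for zinc transport and metallothioneins and 11 induced by glucocorticoids, 0 passed in limma in any of the 4 comparisons. Up to 1 of each list had an unadjusted p under 0.05, against 2.46% to 20.4% of all genes, depending on the comparison. The part of these hormones and metals in the Mt1 and Mt2 values was not tested.

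Receptor genes of calprotectin and lipocalin 2 differed widely in level. Bsg, which encodes the calprotectin receptor basigin, was between 1045.46 and 1381.7 FPKM. Tlr4 was between 2.94 and 7.55 FPKM, Ager between 0.11 and 0.62, and Slc22a17, a lipocalin 2 receptor gene, between 1.09 and 2.87 FPKM. None of the 5 calprotectin receptor genes and 5 partners of lipocalin 2 and Lrg1 that were tested passed in limma in any of the 4 comparisons. Up to 0 and 3 had an unadjusted p under 0.05, against 2.46% to 20.4% of all genes, depending on the comparison. When the third DMSO+Sham mouse was left out, 1 of the 5 calprotectin receptor genes passed in DMSO+AB against DMSO+Sham, in a fit where 4.24% of all genes passed. It was Cd14, the co-receptor of Toll-like receptor 4, by 0.80 ± 0.20 with an adjusted p of 0.0481 in limma. The mouse left out had the highest Cd14 level of all mice, at 20.52 FPKM against at most 12.11. Among the other S100 genes, 2 of 7 tested rose after AB in mice given DMSO, against 5.21% of all genes called in either direction, a count that was between 0 and 6 under the alternatives and 1, S100a11, without the third DMSO+Sham mouse. They were S100a6, by a log2 fold change of 0.96 ± 0.24 with an adjusted p of 0.0426 in limma, and S100a11, by 0.88 ± 0.19 with an adjusted p of 0.0267. Unlike S100a8 and S100a9, these had a lower mean with hispidulin than with DMSO after AB, as did all 7 tested, a difference for which 0 of 7 passed.

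Fibroblast and heart muscle markers changed in the same comparison as S100a6 and S100a11. After AB in mice given DMSO, 3 of 8 fibroblast markers rose, against 5.21% of all genes called in either direction. The count was 1 without the third DMSO+Sham mouse, against 4.24% of all genes, and between 0 and 5 under the alternatives. The 3 called with all mice were Postn, by a log2 fold change of 3.08 ± 0.62 with an adjusted p of 0.0197 in limma, Col1a1, by 1.86 ± 0.46 with 0.0407, and Col1a2, by 1.60 ± 0.41 with 0.0464. These genes encode periostin and the chains of type I collagen. The fibroblast sum was between 346.47 and 448.49 FPKM in DMSO+Sham and between 406.06 and 987.33 FPKM in DMSO+AB. Of 9 ventricular cardiomyocyte markers 2 fell, against 5.21% of all genes called in either direction. These were the calcium channel gene Ryr2, with a log2 fold change of -0.59 ± 0.14 and an adjusted p of 0.0364 in limma, and the phospholamban gene Pln, with -0.62 ± 0.15 and 0.0396. Neither passed without the third DMSO+Sham mouse, where 4.24% of all genes did. Of 5 atrial markers 1, Nppa, passed, by 4.54 ± 0.81 with an adjusted p of 0.0121 in limma, against 5.21% of all genes. This count was between 0 and 1 under the alternatives. The part of these cell types in the S100a6 and S100a11 values was not tested.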

How the data were processed

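RNA of left ventricular muscle from 12 mice was sequenced in single-end 50-base reads on a BGISEQ-500. The authors deposited FPKM per gene and mouse, rounded to 0.01. The submitters' processing notes name HISAT2 2.0.4, Bowtie2 2.2.5, RSEM 1.2.12 and DESeq2 1.4.5 without roles, and the genome build is not given in the sources used here. Read counts were not analysed here, so no counting error is given. RefSeq (GRCm38.p6) gave symbols for 17947 of the 18079 genes (99.3%). The deposited FPKM were not rescaled, and 1 was added to each value before taking log2. In R 4.3.3, limma 3.58.1 estimated a mean for each group from all libraries (8 residual degrees of freedom, trended eBayes, two-sided tests), and the fit was checked on simulated data. Sums, overlaps, correlations and motifs were computed in Python 3.11.15. The mice of a group are separate animals, but p-values measure only the spread between these libraries.

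The 9 genes and all gene lists were chosen with earlier results of these data known. Named genes were the 9, the 5 most like S100a9, Lcn2 and Mt2 by Pearson r, list genes called in a comparison, the 3 neutrophil and erythroid markers of highest mean, and fixed upstream and receptor genes. Other acute-phase, neutrophil and signalling genes were named after their values were seen. Replicate numbers were treated as a possible pairing where every same-numbered pair of residuals correlated above 0.1. This held for Hispidulin+AB against Hispidulin+Sham (0.147 to 0.228) and for Hispidulin+Sham against DMSO+Sham (0.126 to 0.330), as a hint from the data and not from the labels. Alternatives were the value added, the filter, the scaling, the trend, robust eBayes, library weights, the animal series, the replicate block, only the libraries compared, each replicate left out and the stricter threshold of an FDR of 0.001 with a log2 fold change of 1.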

Additional observations from a re-analysis of the deposited data

How the results depend on the processing

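The count of the 9 genes called was 0 in each of the 5 comparisons and stayed 0 under the alternatives, except for Lrg1 in DMSO+AB against DMSO+Sham (1 with library weights and 0 to 1 when a replicate was left out) and S100a8 in Hispidulin+AB against Hispidulin+Sham (1 with library weights). The count of all genes called moved more. For DMSO+AB against DMSO+Sham it was 608, and 358 with no filter on low values, 1423 with library weights, 142 with the animal series as a covariate, 11 with only the libraries compared, 640 with the replicate block, and 91 to 1053 with a replicate left out. Under the stricter threshold it was 0. For Hispidulin+AB against DMSO+AB it was 2 with no filter, 0 with the replicate block and 0 to 20 with a replicate left out. For Hispidulin+AB against Hispidulin+Sham it was 2 with no filter, 2 with median-of-ratios scaling, 3 with quantile normalization, 209 with library weights, 17 with the replicate block, 49 with only the libraries compared and 0 to 9 with a replicate left out. For the interaction it was 0 to 3 with a replicate left out. The replicate block changed no other call. The cause of these moves was not tested. Of the log2 fold changes of the 9 genes under the alternatives, 9 moved by more than the residual SD, all of them without the third DMSO+Sham mouse, and 1057 moved by less. With an FPKM of at least 5 required, Saa3 was not tested.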

Other observations

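The third DMSO+Sham mouse also stood apart in genes of other classes, which were named after their values were seen and are given as values. Its FPKM was 52.99 for Cdo1, cysteine dioxygenase, against at most 3.34 in the other 11 mice. Among genes induced by interferon, Irf7 was at 130.63 FPKM against at most 40.27, Ifitm3 at 656.34 against at most 213.43 and the chemokine gene Cxcl9 at 18.58 against at most 2.92. Among genes of myeloid cells, the Fc receptor gene Fcgr4 was at 26.82 FPKM against at most 3.54 and the integrin gene Itgam at 18.22 against at most 3.41. It was below every other mouse for Actc1, cardiac alpha-actin, at 2740.68 FPKM against at least 7908.75, and for 6 of the 8 fibroblast markers. Arntl, a clock gene, was at 10.42 FPKM against at most 2.76. In all, 90 of the 11664 genes lay at least 2-fold above and 17 at least 2-fold below every other mouse on FPKM + 1.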
